A study of Saccharomyces cerevisiae with 24 samples.

Results

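The 10 histone genes of Saccharomyces cerevisiae were followed over 4 strains and a caffeine treatment. They were taken by name from the 6713 transcripts of the deposited tables: HTA1 and HTA2 for histone H2A, HTB1 and HTB2 for H2B, HHT1 and HHT2 for H3, HHF1 and HHF2 for H4, HTZ1 for the H2A variant H2A.Z, and HHO1 for the linker histone H1. No cutoff on measured values was used to choose them, but earlier results of these data were known when they were chosen. All 10 passed the filter on low counts, which kept 6400 transcripts.

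Core histones H2A, H2B, H3 and H4 form the octamer around which DNA is wrapped in a nucleosome. In budding yeast their genes are transcribed in late G1 and S phase, when DNA is replicated, and each locus holds 2 genes that are read away from each other from 1 shared promoter. The HIR corepressor turns the core loci down outside S phase except for HTA2-HTB2, which does not respond to it. H2A.Z is placed near promoters by the SWR1 complex outside replication, and H1 binds the linker DNA between nucleosomes. Yeast histone mRNAs carry poly(A) tails and are therefore captured by mRNA kits.

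RNA was sequenced from yeast of the strains YPS606, Y55, UWOPS87-2421 and BY4742, the last being a laboratory strain of the S288C background. Each strain gave 3 libraries from cultures in synthetic defined medium with 20 mM caffeine, with a stated exposure of 4 h, and 3 from the same medium without caffeine. Cells were harvested at an optical density of 0.4 in all 8 groups, and the genotype beyond the strain name is not given in the labels. Libraries are called here by the numbers in their titles, 25 to 48. Comparisons of caffeine with no caffeine ask how far the histone transcripts of each strain respond to the drug, and those of YPS606, Y55 and UWOPS87-2421 with BY4742 ask how far genetic background sets their level.

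The core genes lie in 4 divergent pairs, each gene with 1 exon. In the R64 build HTB1 (YDR224C) is at chrIV:914317-914712 on the minus strand and HTA1 (YDR225W) at chrIV:915530-915928 on the plus strand. HTA2 (YBL003C) is at chrII:235394-235792 on the minus strand and HTB2 (YBL002W) at chrII:236492-236887 on the plus strand. HHF1 (YBR009C) is at chrII:255373-255684 on the minus strand and HHT1 (YBR010W) at chrII:256331-256741 on the plus strand. HHT2 (YNL031C) is at chrXIV:575640-576050 on the minus strand and HHF2 (YNL030W) at chrXIV:576727-577038 on the plus strand. HTZ1 (YOL012C) at chrXV:303579-303983 and HHO1 (YPL127C) at chrXVI:308828-309604, both on the minus strand, stand alone.

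The intergenic stretches between the pairs are printed because the 4 loci answered caffeine unequally, with HTA2 and HTB2 lowered most. Capitals mark matches on either strand to the binding site of the activator Spt10 (TTCC, 6 bases of any kind, then TTCNC, where N is any base). They also mark matches to a form of the SCB element of the G1/S factor SBF (CGCGAAA) and to the MCB element of MBF (ACGCGT). Other forms of the Spt10 site, the SCB and the MCB were not searched, and a region may hold them beyond the matches marked. All stretches are from the plus strand of R64, with 20 bases beside the outermost match.
HTA1-HTB1, chrIV:914947-915171: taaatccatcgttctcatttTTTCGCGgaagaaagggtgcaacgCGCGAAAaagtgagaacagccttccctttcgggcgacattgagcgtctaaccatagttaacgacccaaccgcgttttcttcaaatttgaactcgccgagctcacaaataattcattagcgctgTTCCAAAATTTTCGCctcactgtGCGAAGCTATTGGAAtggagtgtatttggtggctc
HTA2-HTB2, chrII:236088-236154: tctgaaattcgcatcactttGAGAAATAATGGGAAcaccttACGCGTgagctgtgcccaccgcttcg
HHT1-HHF1, chrII:255924-255978: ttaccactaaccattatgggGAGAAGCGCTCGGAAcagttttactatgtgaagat
HHT2-HHF2, chrXIV:576326-576492: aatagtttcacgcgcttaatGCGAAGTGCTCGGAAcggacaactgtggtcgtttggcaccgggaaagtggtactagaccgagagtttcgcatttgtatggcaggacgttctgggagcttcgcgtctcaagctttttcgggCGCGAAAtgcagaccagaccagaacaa

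Each intergenic region held at least 1 match to the Spt10 site. HTA1-HTB1, 817 bases long, had 2 Spt10 and 2 SCB matches. HTA2-HTB2, of 699 bases, had 1 Spt10 and 1 MCB match and no SCB match. HHT1-HHF1, of 646 bases, had 1 Spt10 match alone, and HHT2-HHF2, of 676 bases, had 1 Spt10 and 1 SCB match. In 500-base windows upstream of 6006 genes, the Spt10 letters were found in 2.90%, the SCB letters in 5.81% and the MCB letters in 5.43%. In the same window HTZ1 had no match to the 3 motifs and HHO1 had 1 SCB match. A match is a run of letters in the reference and not a measured site. Whether these letters bear on the response to caffeine was not tested. The promoter letters of YPS606, Y55 and UWOPS87-2421 were not analysed here.

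**Figure D1:**
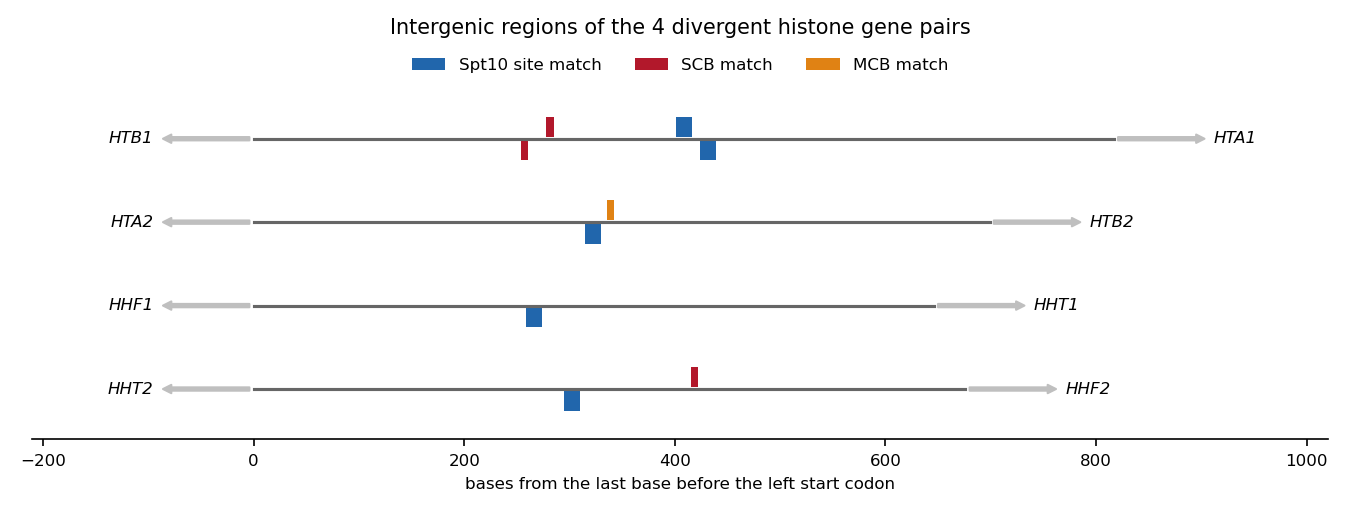
Map of the 4 regions between divergent histone genes, drawn to scale from the start codon of the gene on the left, with distance in bases on the horizontal axis and marks for matches to the Spt10 site, the SCB and the MCB (above the line on the plus strand, below it on the minus strand; arrows give gene direction only). The HTA2-HTB2 region is the only one of the 4 with an MCB match, and HTA1-HTB1 has 2 Spt10 and 2 SCB matches.

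The 2 copies of each core histone are close in sequence, which limits how well reads can be divided between them. The coding sequences differ at 25 of 399 bases between HTA1 and HTA2, 48 of 396 between HTB1 and HTB2, 28 of 411 between HHT1 and HHT2 and 8 of 312 between HHF1 and HHF2. Of the 31-base words that kallisto matches by default, 87.5% of those in HTA1 or HTA2 were found in no other coding sequence, against 98.6% for HTB1 or HTB2, 75.6% for HHT1 or HHT2 and 59.2% for HHF1 or HHF2. To show this, a stretch of 120 bases from the H2A pair and from the H4 pair is printed in the direction of the gene, with bases that differ from the other copy in capitals.
HTA1, chrIV:915674-915793, plus strand: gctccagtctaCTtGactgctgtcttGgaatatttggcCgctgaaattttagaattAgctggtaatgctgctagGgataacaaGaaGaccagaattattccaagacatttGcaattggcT
HTA2, chrII:235529-235648, minus strand: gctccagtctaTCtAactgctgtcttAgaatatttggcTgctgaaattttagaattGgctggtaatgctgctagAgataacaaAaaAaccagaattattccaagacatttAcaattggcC
HHF1, chrII:255463-255582, minus strand: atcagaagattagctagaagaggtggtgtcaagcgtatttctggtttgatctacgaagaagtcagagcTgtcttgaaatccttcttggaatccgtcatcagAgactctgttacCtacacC
HHF2, chrXIV:576829-576948, plus strand: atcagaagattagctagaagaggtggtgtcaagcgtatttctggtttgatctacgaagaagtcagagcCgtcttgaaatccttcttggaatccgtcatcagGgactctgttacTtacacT

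The estimated counts carried the mark of shared reads. They were not whole numbers for HHF1 and HHF2 in 24 of 24 libraries, for HHT1 and HHT2 in 23, for HTA2 in 16, for HTA1 in 15 and for HTB1 and HTB2 in 5, while HTZ1 and HHO1 had whole counts in every library. Values of single H4 and H3 copies are therefore less certain than those of H2A and H2B, and the sum of each pair is given beside them. Reads of all strains were assigned to the transcripts of the reference strain, and the part that this takes in differences between strains was not tested.

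Libraries held 8714049 to 29524968 estimated counts, with a median of 21107258, and the lowest count of a histone gene was 575 for HTZ1. LEU2 and LYS2, both deleted in BY4742, gave 0 to 5 and 0 to 2 counts in the 6 BY4742 libraries and at least 542 and 1571 in the other 18. URA3, also deleted in BY4742, gave 0 to 2 counts there, but it was also low in 4 libraries of the other strains. It had 41 and 10 counts in Y55 libraries 27 and 31, and 1 count each in UWOPS87-2421 libraries 28 and 32, where the highest count of either strain was 2341. These 4 libraries all lie among the first 8 library numbers. HIS3, also counted as a check of the strain labels, was not low in BY4742, with 1693 to 4201 counts there. It had 89 to 1052 counts in YPS606, 298 to 2101 in Y55 and 616 to 1983 in UWOPS87-2421, and the cause was not tested. The numbers of genes at least 2-fold from the mean of the other 2 libraries of the group were highest in library 42 of YPS606 without caffeine (346 of 5419), library 35 of Y55 without caffeine (258) and library 37 of BY4742 in caffeine (188), against 3 to 168 in the rest. Results that change without 1 of these libraries are given with and without it. Nothing in the labels says that the 3 libraries of a group are separate cultures, so p-values measure only the spread between libraries.

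Y55 and UWOPS87-2421 gave nearly the same profile. In either medium 4 of 6400 genes (0.0625%) passed the threshold in edgeR's quasi-likelihood test, and 245 without caffeine and 124 in caffeine had an unadjusted p under 0.05. The 4 genes were those of the 2-micron plasmid (R0010W, R0020C, R0030W and R0040C), at normalised levels of 97.3 to 529 in Y55 and 0 to 1.92 in UWOPS87-2421, in CPM (counts scaled by library size). No histone gene differed between them, with log2 differences of -0.03 to 0.19 without caffeine and 0.01 to 0.34 in caffeine. Whether the 2 labels, and the libraries low in URA3, stand for the strain stocks they name was not tested. Both strains are given under their labels, and like values in them are not counted as 2 separate backgrounds.

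Per kilobase of effective length, the H4 gene HHF2 held the highest level of the 10 in the 4 groups without caffeine. In caffeine the H3 gene HHT2 was highest in YPS606 and BY4742, and the H2B gene HTB1 in Y55 and UWOPS87-2421. Group means of HHF2 ran from 1381 to 3389 CPM per kb, those of HHT2 from 1662 to 2922, of HTB1 from 1022 to 2986, of HHF1 from 1030 to 2715, of HHT1 from 688 to 2227 and of HTA1 from 879 to 2052 CPM per kb. HTB2 ran from 374 to 1683 and HTA2 from 192 to 1574 CPM per kb, which were the largest ratios of highest to lowest group mean among the 10 genes. HTZ1 and HHO1 were the lowest in every group, at 141 to 259 and 87.7 to 195 CPM per kb. The lowest group mean of all 10 genes but HHT2 was that of BY4742 in caffeine.

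**Figure D2:**
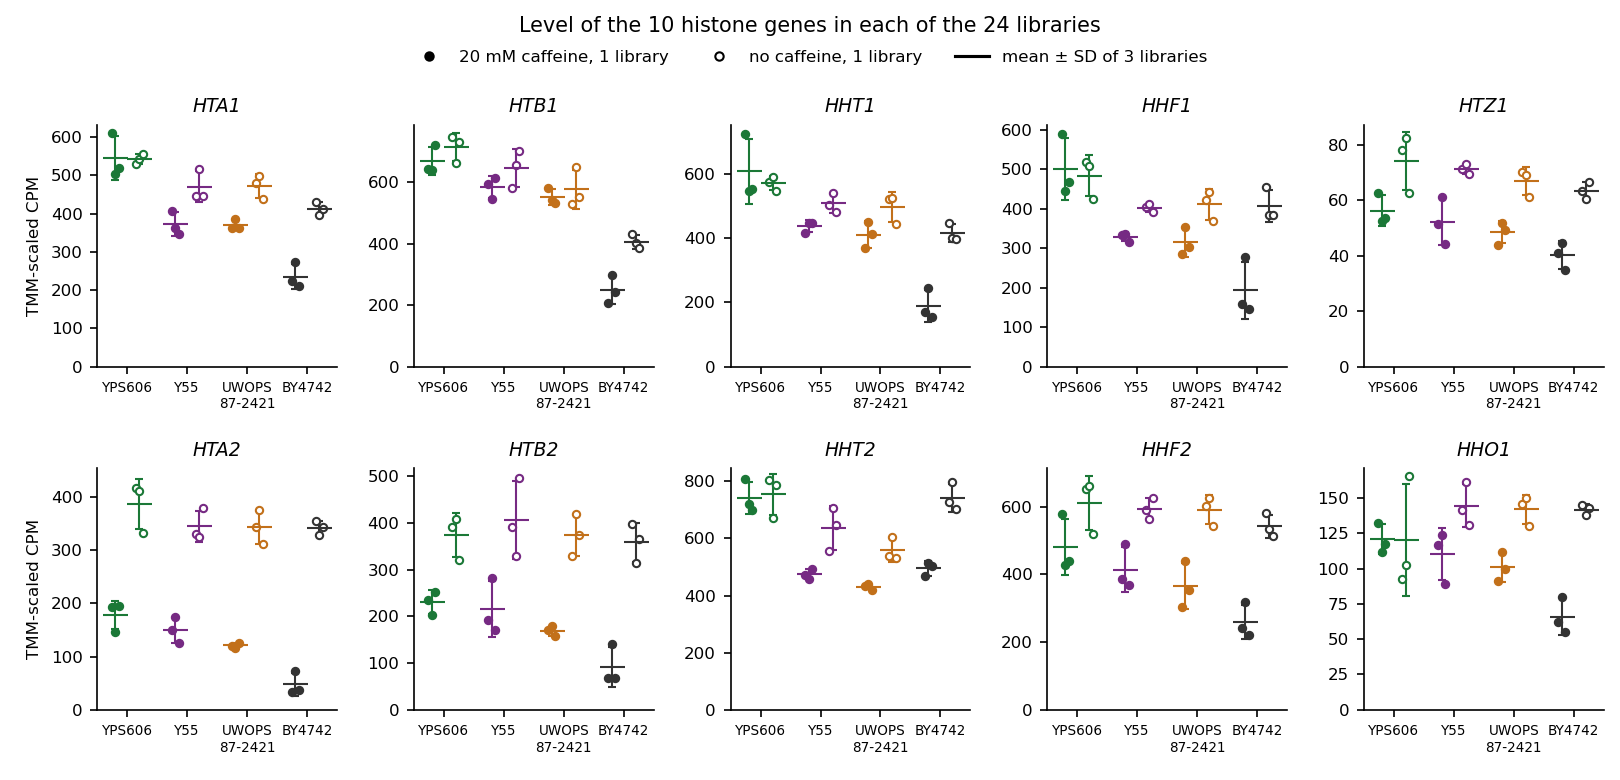
Normalised level of each histone gene in CPM (linear axis from 0, with its own range per gene) in every library, with caffeine left of no caffeine within each strain and BY4742 last; points are libraries, filled in caffeine and open without it, and bars are group means ± SD (n = 3). HTA2 lay at 33.7 to 73.0 CPM in BY4742 in caffeine, against 328 to 354 CPM in BY4742 without caffeine.

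HTA2, which encodes H2A, fell in caffeine in all 4 strains, and most in BY4742. It had 33.7, 73.0 and 37.0 CPM in BY4742 in caffeine, against 354, 328 and 343 CPM in BY4742 without it. The caffeine libraries were all below the others, and library 37, with 73.0 CPM, lay at about 2 times the level of the other 2. This is a log2 difference of -2.84 ± 0.22 (SE, n = 3 each, adjusted p = 4.78e-09 in edgeR's quasi-likelihood test). In bulk RNA, fewer cells in S phase and less histone RNA per cell cannot be told apart, here or in any result that follows.

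In the other strains HTA2 fell less. In YPS606 it had 193, 147 and 194 CPM in caffeine, against 416, 411 and 332 CPM without it (-1.12 ± 0.20, adjusted p = 0.000262). Y55 had 149.6, 174 and 125 CPM in caffeine and 331, 325 and 378 CPM without it (-1.20 ± 0.21, adjusted p = 0.000518). UWOPS87-2421 had 120.3, 116 and 126 CPM in caffeine and 342, 374 and 312 CPM without it (-1.50 ± 0.21, adjusted p = 3.03e-05). In all 4 strains each library in caffeine was below each library without it. The 4 groups without caffeine overlapped, while in caffeine the order was BY4742, UWOPS87-2421, Y55 and YPS606 from low to high, with BY4742 apart from the other 3 and neighbours among those overlapping. HTA2 was the only histone gene whose call in each of the 4 strains was kept with every library left out in turn and in 5 other fits (RLE size factors, DESeq2, length offsets, no filter on low counts, only the groups compared).

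HTB2, the H2B gene that shares a promoter with HTA2, followed it. It had 67.5, 140.5 and 67.1 CPM in BY4742 in caffeine, against 397, 314 and 366 CPM without it (-1.97 ± 0.24, adjusted p = 1.64e-06). Library 37 was again the highest of the caffeine libraries and still below all 3 without caffeine. HTB2 also fell in UWOPS87-2421, with 172, 178 and 158 CPM in caffeine against 329, 418 and 373 CPM without it (-1.14 ± 0.24, adjusted p = 0.00143). In Y55 it had 191, 283 and 169.97 CPM in caffeine, against 392, 329.9 and 495 CPM without it (-0.92 ± 0.24, adjusted p = 0.0126). The groups did not overlap in either strain, but the Y55 call was lost without any 1 of libraries 31, 43 and 47, at log2 differences of -0.85 to -0.76. In YPS606 HTB2 had 235, 204 and 253 CPM in caffeine, against 392, 409 and 320.4 CPM without it (-0.70 ± 0.23, adjusted p = 0.0226). That call was lost without any 1 of libraries 26, 30, 34 and 38, at -0.71 to -0.61.

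The other H2A and H2B locus moved much less. HTA1 had 224, 272 and 209.7 CPM in BY4742 in caffeine, against 431, 397 and 411 CPM without it (-0.81 ± 0.10, adjusted p = 2.69e-06). HTB1 had 209, 298 and 244 CPM in BY4742 in caffeine, against 431, 403 and 387 CPM without it (-0.70 ± 0.12, adjusted p = 5.03e-05). Both fell in BY4742 with no overlap between the groups. HTA1 fell slightly in UWOPS87-2421 (-0.35 ± 0.10, adjusted p = 0.0167) and Y55 (-0.34 ± 0.10, adjusted p = 0.035). These 2 calls were lost without any 1 of UWOPS87-2421 libraries 32, 36 and 48 (-0.34 to -0.32) and Y55 libraries 35, 39 and 47 (-0.32 to -0.27). In YPS606 HTA1 had 612, 504 and 519 CPM in caffeine and 529, 542 and 556 CPM without it, and the groups overlapped (0.01 ± 0.10, adjusted p = 0.973). HTB1 did not pass the test in YPS606, Y55 or UWOPS87-2421, with log2 differences of -0.10 ± 0.12, -0.15 ± 0.12 and -0.06 ± 0.12.

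The H3 and H4 genes fell in BY4742 by amounts between those of the 2 H2A and H2B loci, except HHT2. HHT1, an H3 gene, had 169, 244 and 153 CPM in BY4742 in caffeine, against 449, 399.6 and 398 CPM without it (-1.14 ± 0.14, adjusted p = 2.24e-06). Its divergent H4 partner HHF1 had 158, 277 and 146 CPM in caffeine, against 454, 385 and 383 CPM without it (-1.07 ± 0.18, adjusted p = 4.74e-05). In both, library 37 was the highest of the caffeine libraries and the groups did not overlap. HHF2 had 240.5, 317 and 220.4 CPM in BY4742 in caffeine, against 579.9, 535 and 513 CPM without it (-1.07 ± 0.16, adjusted p = 1.65e-05). HHT2, its H3 partner, had 467, 515 and 503 CPM in caffeine, against 726, 797 and 702 CPM without it. That is the smallest fitted change of the 10 genes in BY4742 (-0.58 ± 0.10, adjusted p = 6.63e-05).

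HHT1 and HHF1 did not pass the test in the 3 other strains, with log2 differences of 0.09 ± 0.14 and 0.05 ± 0.18 in YPS606, -0.22 ± 0.14 and -0.29 ± 0.18 in Y55 and -0.28 ± 0.14 and -0.39 ± 0.18 in UWOPS87-2421. HHF2 fell in UWOPS87-2421 (-0.69 ± 0.16, adjusted p = 0.00339) and Y55 (-0.52 ± 0.16, adjusted p = 0.0343), and HHT2 in UWOPS87-2421 (-0.38 ± 0.10, adjusted p = 0.00859) and Y55 (-0.42 ± 0.10, adjusted p = 0.00726). The HHF2 call in Y55 was lost without any 1 of libraries 27, 31, 43 and 47, at -0.53 to -0.44. In YPS606 HHT2 had 807, 719 and 699.7 CPM in caffeine and 805, 673 and 786 CPM without it, so that the groups overlapped (-0.02 ± 0.10, adjusted p = 0.874). HHF2 had 577, 429 and 440.5 CPM in YPS606 in caffeine and 653, 659.7 and 519 CPM without it, and it missed the threshold there (-0.34 ± 0.16, adjusted p = 0.0947).

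HTZ1, the H2A.Z gene, fell in all 4 strains. In YPS606 it had 62.6, 52.5 and 53.8 CPM in caffeine and 78.1, 82.4 and 62.6 CPM without it, with 1 library on each side at about the same level (-0.40 ± 0.12, adjusted p = 0.0128). In Y55 the log2 difference was -0.45 ± 0.12 (adjusted p = 0.0179), in UWOPS87-2421 -0.47 ± 0.12 (adjusted p = 0.0083) and in BY4742 -0.66 ± 0.12 (adjusted p = 0.000168), with no overlap in these 3 strains. The YPS606 call was lost without any 1 of libraries 26, 34 and 38 (-0.35 to -0.31) and the Y55 call without library 31 or 47 (-0.45 to -0.34). HTZ1 was the only one of the 10 for which no difference of caffeine response from BY4742 passed the test, with differences of 0.26 ± 0.17 in YPS606, 0.21 ± 0.17 in Y55 and 0.19 ± 0.17 in UWOPS87-2421.

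HHO1, for linker histone H1, fell in BY4742, where it had 62.4, 80.2 and 54.97 CPM in caffeine against 145, 138 and 143 CPM without it (-1.11 ± 0.18, adjusted p = 3.49e-05). In UWOPS87-2421 it had 91.2, 112 and 99.6 CPM in caffeine against 146, 150.01 and 130.1 CPM without it (-0.49 ± 0.18, adjusted p = 0.043). That call was lost without any 1 of libraries 28, 32, 36, 44 and 48, at -0.56 to -0.43. In Y55 it had 117, 124 and 89.1 CPM in caffeine and 141, 161 and 131 CPM without it, which missed the threshold although the groups did not overlap (-0.40 ± 0.18, adjusted p = 0.144). In YPS606 the level was 132, 112 and 118 CPM in caffeine and 92.8, 103 and 166 CPM without it. Library 42 alone, at 166 CPM, lay above all the caffeine libraries (0.00 ± 0.18, adjusted p = 0.998).

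In BY4742, 10 of the 10 histone genes were called lower in caffeine, where 25.0% of all genes tested were lower. In UWOPS87-2421 the count was 7 of 10 beside 13.0% of all genes, in Y55 6 of 10 beside 5.77%, and in YPS606 3 of 10 beside 20.0%. No histone gene was called higher in caffeine, where 27.5% of all genes were in BY4742, 14.7% in UWOPS87-2421, 8.64% in Y55 and 20.5% in YPS606. The median log2 difference of the 10 genes was -1.07 in BY4742, -0.43 in UWOPS87-2421, -0.41 in Y55 and -0.06 in YPS606, beside medians of 0.03, 0.00, -0.01 and 0.00 over all genes. The libraries in caffeine did not overlap those without it for 10 of the 10 genes in BY4742 (63.2% of all genes), 8 in UWOPS87-2421 (54.5%), 9 in Y55 (22.7%) and 2 in YPS606 (49.9%).

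The counts outside BY4742 rested on few libraries. In Y55 2 genes were called without library 47, and 1 when the Y55 libraries were fitted alone. In YPS606 1 gene was called without library 26, 34 or 38 and 4 without library 42. Without the 4 libraries low in URA3, 2 genes were called lower in Y55, HTA2 (-1.24) and HHT2 (-0.52), and 3 in UWOPS87-2421, HTA2 (-1.51), HTB2 (-1.24) and HHT2 (-0.41). The 10 calls in BY4742 were kept with every library left out in turn, library 37 included.

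**Figure D3:**
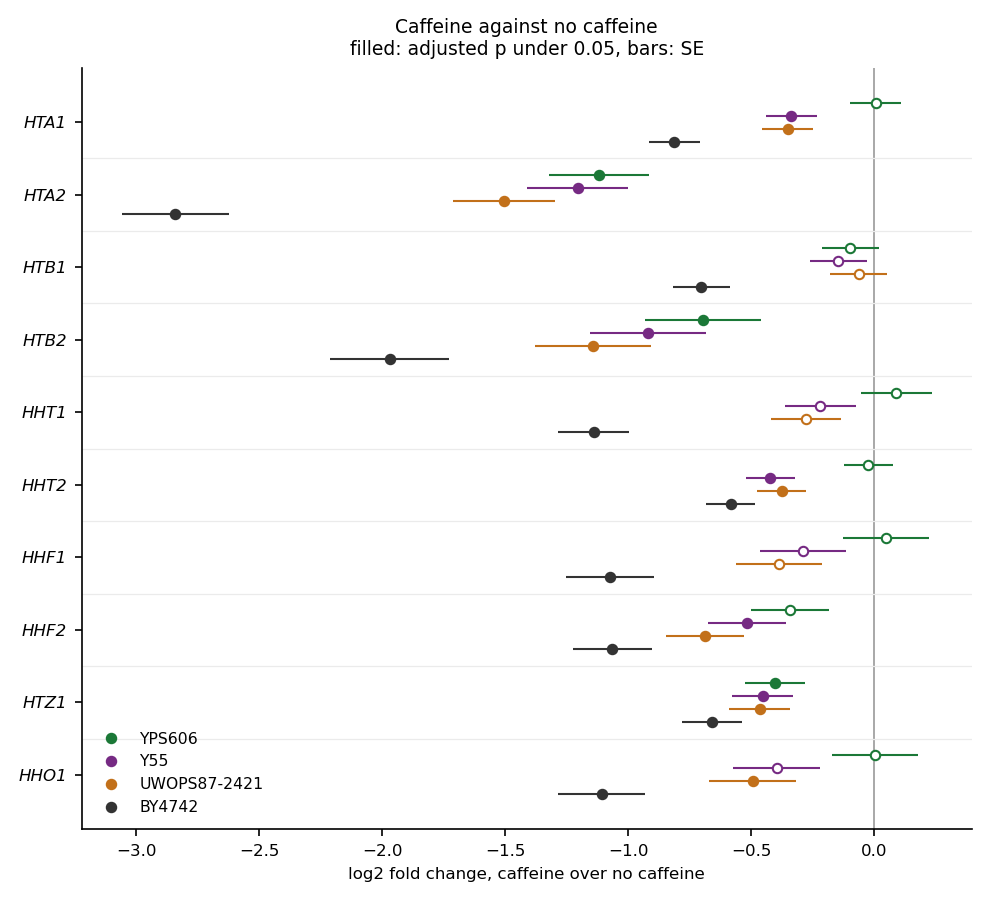
Log2 difference of caffeine minus no caffeine for each histone gene in each strain, with standard errors from the edgeR fit of 24 libraries; filled points passed the threshold. HTA2 and HTB2 lay lowest in every strain, at -2.84 and -1.97 in BY4742, and the YPS606 points of the other genes lay between -0.40 and 0.09.

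Sums over the 2 copies are not touched by wrongly divided reads, and each of the 4 had its lowest log2 difference in BY4742 and its highest in YPS606. The H2A sum fell in all 4 strains, by 1.41 ± 0.12 in BY4742 (adjusted p = 9.72e-09), 0.73 ± 0.11 in UWOPS87-2421, 0.64 ± 0.11 in Y55 and 0.36 ± 0.11 in YPS606 (adjusted p = 0.0149) on the log2 scale. The H2B sum fell in BY4742 (-1.16 ± 0.14) and UWOPS87-2421 (-0.40 ± 0.13, adjusted p = 0.0338), the H3 sum in BY4742 (-0.76 ± 0.10), UWOPS87-2421 (-0.33 ± 0.10) and Y55 (-0.33 ± 0.10), and the H4 sum in BY4742 (-1.07 ± 0.16) and UWOPS87-2421 (-0.56 ± 0.16). In Y55 the H2B sum, at -0.40 ± 0.13 (adjusted p = 0.0532), and the H4 sum, at -0.42 ± 0.16 (adjusted p = 0.0862), missed the threshold although the groups did not overlap. In YPS606 the H3 sum had 1531, 1267 and 1252 CPM in caffeine and 1381, 1263 and 1334 CPM without it (0.03 ± 0.10). The H4 sum there had 1166, 872 and 907 CPM in caffeine and 1171, 1168 and 944 CPM without it (-0.16 ± 0.16). Neither passed the test, and the groups overlapped. The H2A call in YPS606 was lost without library 26, 34 or 38 (-0.33 to -0.29). In UWOPS87-2421 the H2B call was lost without any 1 of libraries 32, 36, 40, 44 and 48 (-0.43 to -0.31), the H3 call without any 1 of 28, 32, 36 and 48 (-0.33 to -0.28) and the H4 call without 32 or 36 (-0.51 to -0.46). The H3 call in Y55 was lost without any 1 of libraries 31, 35, 39, 43 and 47 (-0.35 to -0.27).

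As a share of all estimated counts, the 8 core genes held 0.215% ± 0.0307 in BY4742 in caffeine and 0.339% ± 0.0243 without it (SD, n = 3 each). The shares were 0.285% ± 0.0160 in caffeine and 0.343% ± 0.0314 without it in UWOPS87-2421, and 0.302% ± 0.0140 and 0.372% ± 0.0213 in Y55 in the same order. In YPS606 they were 0.431% ± 0.0328 in caffeine and 0.403% ± 0.00757 without it. The groups did not overlap in BY4742, UWOPS87-2421 and Y55, and they overlapped in YPS606. Counts taken by the most abundant transcripts moved these shares: without the top 1% of transcripts the BY4742 shares were 0.279% in caffeine and 0.507% without it, and the YPS606 shares 0.587% and 0.592% in the same order.

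HTA1 held a larger share of the H2A transcripts in caffeine, in each library of each strain. From estimated counts divided by effective length, HTA1 made 82.6% ± 4.37 of H2A transcripts in BY4742 in caffeine and 52.8% ± 0.2495 without it (SD, n = 3 each), a difference of 29.8 points. The share was 74.1% in caffeine and 56.7% without it in YPS606, 69.95% and 55.9% in Y55, and 73.9% and 56.1% in UWOPS87-2421, each pair in the same order. The libraries did not overlap in any strain, and each exact two-sided permutation test gave p = 0.1, the smallest that 3 against 3 allows (0.16 adjusted over the 16 shares tested). HTB1 made 74.0% of H2B transcripts in BY4742 in caffeine against 53.3% without it, and the differences were 8.76 points in YPS606, 11.8 in Y55 and 15.9 in UWOPS87-2421. The exact tests gave p = 0.1 again, except Y55 at p = 0.2, where library 39 in caffeine (65.8%) lay below library 35 without it (66.6%).

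The balance of the H3 copies differed between strains. HHT2 made 74.3%, 68.6% and 77.4% of H3 transcripts in BY4742 in caffeine and 62.6%, 67.4% and 64.6% without it. It made 50.2% to 59.9% in the 18 libraries of the other strains, all below the lowest BY4742 library. Permuting libraries within each medium, the mean difference from BY4742 was -12.1 points in YPS606, -14.3 in Y55 and -16.0 in UWOPS87-2421. Each had p = 0.005 in a two-sided exact permutation test over 400 arrangements, the smallest that it can give, and 0.02 adjusted over the 12 shares tested. Within caffeine the differences were -17.2, -20.3 and -21.1 points in that order of strains, and without caffeine -7.03, -8.39 and -11.0 points. Differences in how strain reads match the reference copies were not tested as a part of this. The share of HHF2 among H4 transcripts differed from BY4742 by -5.21 points in YPS606 (exact permutation p = 0.01, adjusted 0.03) and did not pass for Y55 (0.232 points, p = 0.905) or UWOPS87-2421 (-1.09 points, p = 0.465). None of the HTA1 or HTB1 shares passed between strains after adjustment, in this test of the mean difference over both media. For HTA1 the differences from BY4742 had opposite signs. They were -8.55, -12.7 and -8.70 points in caffeine and 3.92, 3.11 and 3.33 without it, in YPS606, Y55 and UWOPS87-2421. For HTB1 they were 0.59, -0.62 and 2.66 points in caffeine and 12.5, 8.26 and 7.44 without it. A mean over media cannot show such differences, and no medium was tested alone.

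**Figure D4:**
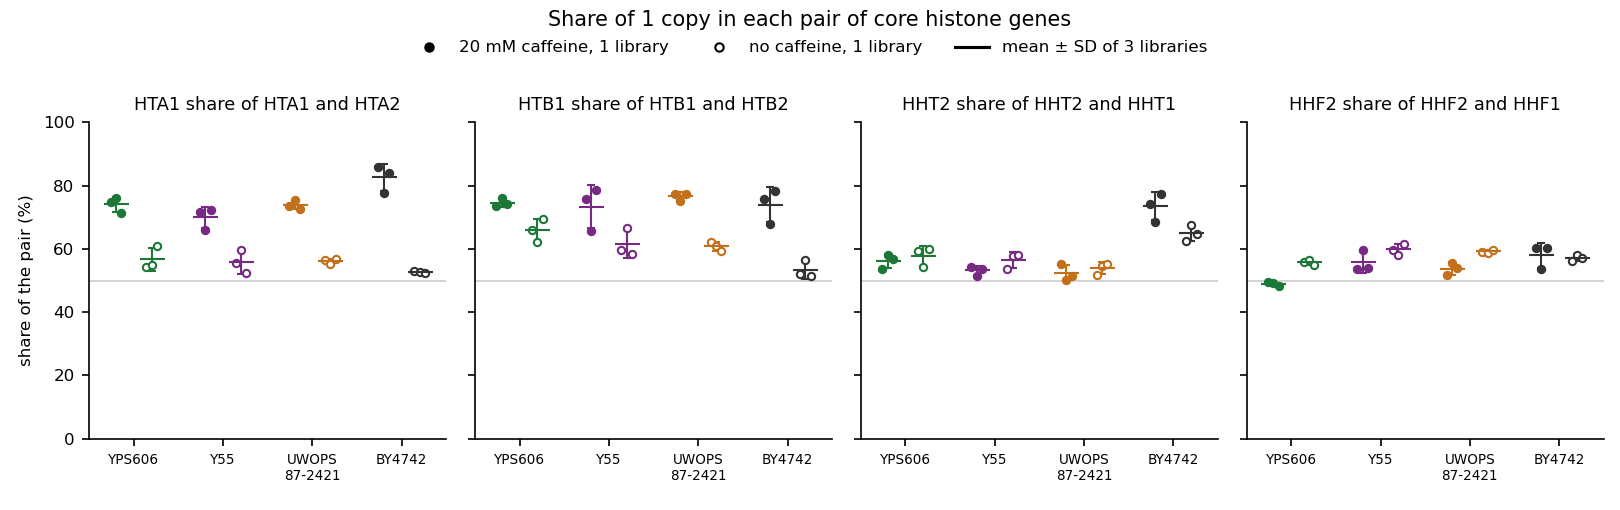
Share of 1 copy in its pair in percent (HTA1, HTB1, HHT2 and HHF2), per library, with caffeine (filled) left of no caffeine (open) and BY4742 last; bars are group means ± SD (n = 3). HTA1 had a mean share of 82.6% in BY4742 in caffeine, against 52.8% without it, and the HHT2 shares of BY4742 lay above those of the 18 other libraries.

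Without caffeine few histone genes differed between strains, and HTB1 was the only one called in the same direction in all 3. HTB1 had 749, 665 and 733 CPM in YPS606, 582, 658 and 704 CPM in Y55 and 531, 651 and 552 CPM in UWOPS87-2421, against 431, 403 and 387 CPM in BY4742. All 9 libraries of the other strains lay above the 3 of BY4742. The log2 differences from BY4742 were 0.81 ± 0.12 in YPS606 (adjusted p = 1.19e-05), 0.67 ± 0.12 in Y55 (adjusted p = 0.000119) and 0.51 ± 0.12 in UWOPS87-2421 (adjusted p = 0.00178). These 3 comparisons share the BY4742 libraries.

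YPS606 was also higher for HTA1, with 529, 542 and 556 CPM against 431, 397 and 411 CPM in BY4742 (0.39 ± 0.10, adjusted p = 0.00513), and for HHT1 (0.46 ± 0.14, adjusted p = 0.0151). The HHT1 call was lost without any 1 of libraries 26, 33, 34 and 41, at 0.41 to 0.43. HHT2 was lower in UWOPS87-2421, with 539.9, 607 and 532 CPM against 726, 797 and 702 CPM in BY4742 (-0.41 ± 0.10, adjusted p = 0.00296). In Y55 HHT2 had 556, 707 and 647 CPM (-0.22 ± 0.10, adjusted p = 0.0953), and without its library 35 the difference passed, at -0.33. Thus 3 of 10 genes were called higher in YPS606 beside 21.0% of all genes, 1 in Y55 beside 20.0% and 1 in UWOPS87-2421 beside 20.8%, where 1 was called lower beside 15.8%. Without library 42, 5 genes were called in YPS606, among them HHO1 at -0.54, which was -0.24 ± 0.18 with it. Without library 35, 2 were called in Y55.

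Of the sums over copies, H2B was higher than in BY4742 in YPS606 (0.51 ± 0.13, adjusted p = 0.00507) and Y55 (0.46 ± 0.13, adjusted p = 0.0112), and H2A in YPS606 (0.30 ± 0.11, adjusted p = 0.0421). The Y55 call for H2B was lost without library 33 or 43 (0.33 to 0.39). The YPS606 call for H2A was lost without any 1 of libraries 25, 26, 33, 34 and 41 (0.25 to 0.31). No sum passed in UWOPS87-2421.

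In caffeine the strains stood far apart. HTA2, at 193, 147 and 194 CPM in YPS606 against 33.7, 73.0 and 37.0 CPM in BY4742, was 3.73 times as high (log2 difference 1.90 ± 0.21, adjusted p = 2.94e-07). It was also higher in Y55 (1.65 ± 0.21) and UWOPS87-2421 (1.34 ± 0.21). HHT1 had 724, 547 and 553 CPM in YPS606 in caffeine, against 169, 244 and 153 CPM in BY4742 in caffeine (1.69 ± 0.15, adjusted p = 8.04e-09), and its differences were 1.21 ± 0.14 in Y55 and 1.12 ± 0.14 in UWOPS87-2421. The groups did not overlap in any of these. HTB1 followed with 1.42 ± 0.12 in YPS606, 1.23 ± 0.12 in Y55 and 1.15 ± 0.12 in UWOPS87-2421. HTB2 and HHF1 were higher in the 3 strains by 0.70 to 1.37, and HTA1, HHF2 and HHO1 by 0.50 to 1.21.

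HHT2 parted the strains in caffeine. It was higher in YPS606, with 807, 719 and 699.7 CPM against 467, 515 and 503 CPM in BY4742 (0.58 ± 0.10, adjusted p = 7.47e-05). It did not pass in Y55, with 473, 457 and 494 CPM (-0.06 ± 0.10), or in UWOPS87-2421, with 434, 439 and 420.2 CPM (-0.20 ± 0.10, adjusted p = 0.0968). HTZ1 was higher in YPS606 (0.49 ± 0.12, adjusted p = 0.00293) and Y55 (0.37 ± 0.12, adjusted p = 0.0138). The Y55 call for HTZ1 was lost without library 31, 39 or 45 (0.25 to 0.32), and HTZ1 in UWOPS87-2421 passed without library 32 or 37 (0.34 to 0.35). The UWOPS87-2421 call for HHF2 was lost without library 29, 40 or 45 (0.35 to 0.45). In all, 10 of 10 genes were called higher in YPS606 beside 24.5% of all genes, 9 in Y55 beside 30.4% and 8 in UWOPS87-2421 beside 28.1%. The sums over copies were all higher: H2A by 1.35, 0.88 and 0.79, H2B by 1.40, 1.23 and 1.08, H3 by 0.98, 0.42 and 0.30, and H4 by 1.12, 0.71 and 0.59 in YPS606, Y55 and UWOPS87-2421 in that order. The H3 call in UWOPS87-2421 was lost without library 29, 40 or 45 (0.25 to 0.27). For the H4 sum the groups overlapped there, at 589 to 794 CPM in UWOPS87-2421 against 366 to 594 CPM in BY4742.

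**Figure D5:**
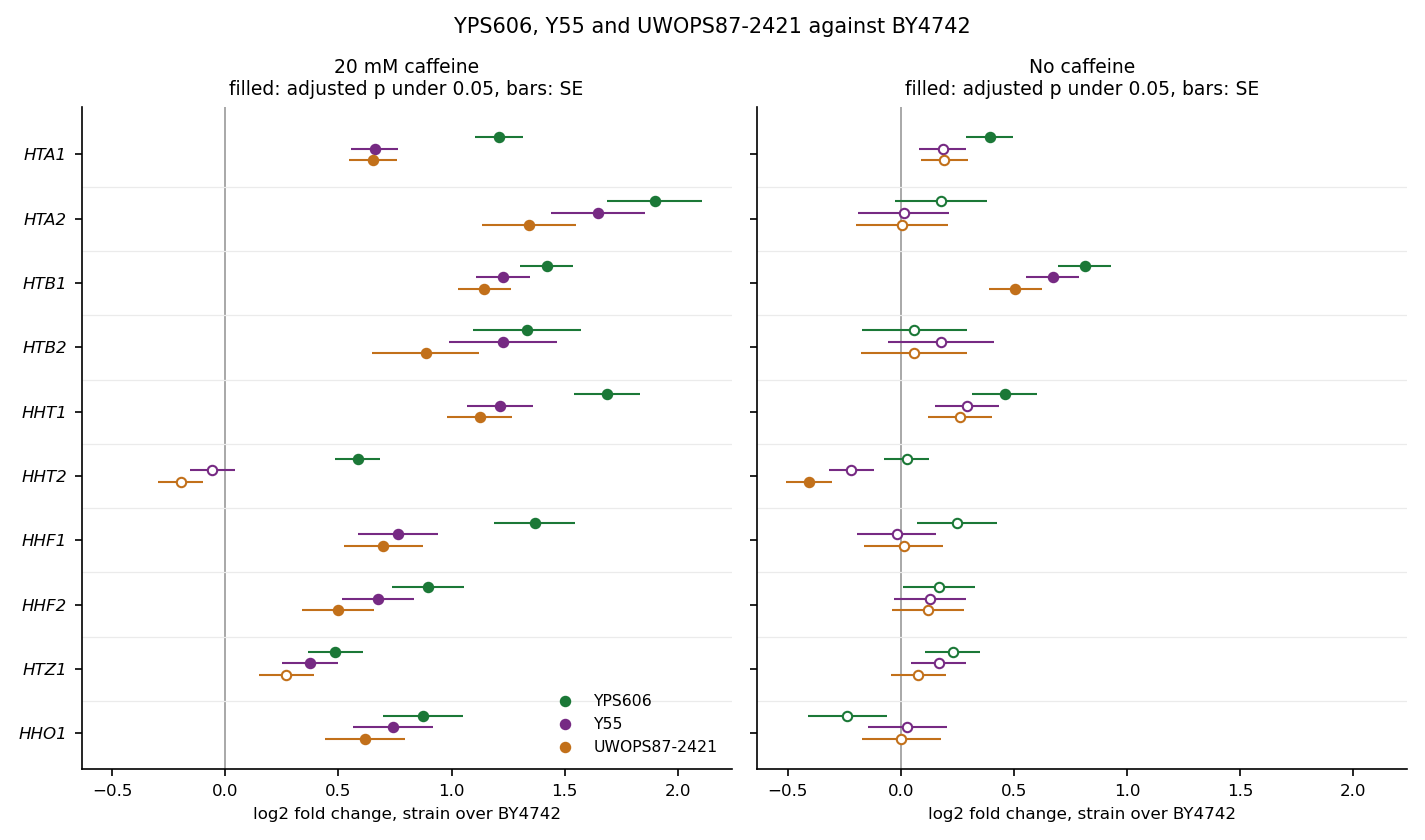
Log2 difference from BY4742 for each histone gene in YPS606, Y55 and UWOPS87-2421, in caffeine on the left and without caffeine on the right, with standard errors; filled points passed the threshold. In caffeine 10, 9 and 8 of the 10 genes were higher than in BY4742, and without caffeine HTB1 was higher in all 3 strains.

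The difference of caffeine responses was tested directly as an interaction term, and it was positive for each histone gene in each strain, the loss in BY4742 being deeper. It passed the threshold for 9 of 10 genes in YPS606 beside 6.86% of all genes called higher, for 7 in Y55 beside 15.2% and for 4 in UWOPS87-2421 beside 11.0%. The largest was that of HTA2, at 1.72 ± 0.29 in YPS606 (adjusted p = 0.000573), 1.64 ± 0.29 in Y55 (adjusted p = 0.000455) and 1.34 ± 0.29 in UWOPS87-2421 (adjusted p = 0.00298). HHT1 came to 1.23 ± 0.20, 0.92 ± 0.20 and 0.86 ± 0.20 in the same order of strains. HTA2 and HHT1 passed in all 3 strains with every library left out in turn. The 3 interactions rest on the same 6 BY4742 libraries, and those of Y55 and UWOPS87-2421 come from strains with nearly the same profile. In Y55 2 genes passed without library 25, 27 or 29, and 8 without library 37; in UWOPS87-2421 7 passed without library 37.

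Markers of cell-cycle phase moved beside the histone genes, and their part in the results was not tested. Of 11 G1/S genes, 10 fell in BY4742 in caffeine, 8 in UWOPS87-2421, 4 in Y55 and 3 in YPS606, where CDC21 rose. The shares of all genes called lower were 25.0% in BY4742, 13.0% in UWOPS87-2421, 5.77% in Y55 and 20.0% in YPS606, as above, so that the YPS606 count is near that of all genes. Their summed level was 751 to 925 CPM in BY4742 in caffeine against 1310 to 1464 CPM without it, 987 to 1100 against 1322 to 1404 CPM in UWOPS87-2421, 1022 to 1136 against 1055 to 1370 CPM in Y55, and 1241 to 1292 against 1195 to 1259 CPM in YPS606. No marker was at 0. POL30, the replication clamp PCNA, fell by 1.48 in BY4742, 0.65 in UWOPS87-2421, 0.47 in Y55 and 0.33 in YPS606 on the log2 scale. The ribonucleotide reductase gene RNR1 fell by 0.75, 0.60 and 0.46 in the first 3 of these and had 0.20 in YPS606, where it did not pass. The cyclin gene CLN1 fell by 0.85, 0.75 and 0.50 in the same 3 strains and had -0.18 in YPS606.

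Of 7 G2/M genes, 5 fell in BY4742, 4 in YPS606 and 2 each in Y55 and UWOPS87-2421, beside 25.0%, 20.0%, 5.77% and 13.0% of all genes in that order of strains. HOF1, a cytokinesis gene, and the cyclin gene CLB1 fell in all 4 strains, HOF1 by 0.94 in YPS606 and 1.32 in BY4742. The G2/M summed level was 315 to 452 CPM in BY4742 in caffeine against 488 to 511 CPM without it, and 434 to 510 against 653 to 691 CPM in YPS606. Of 8 M/G1 genes, 4 fell in BY4742 and 1 each in YPS606 and UWOPS87-2421, while 3 rose in each strain but BY4742, beside 20.5% of all genes called higher in YPS606, 8.64% in Y55 and 14.7% in UWOPS87-2421. These were DSE1, DSE2 and the chitinase gene CTS1, all for separation of daughter cells. CTS1 rose by 1.08 in YPS606, 1.46 in Y55 and 1.79 in UWOPS87-2421 and had -0.32 in BY4742, where it did not pass.

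Of 12 regulators of histone genes, 3 fell and 2 rose in BY4742 in caffeine, 4 fell and 1 rose in UWOPS87-2421, 1 fell in Y55, and 2 fell and 2 rose in YPS606. The shares of all genes were 25.0% lower and 27.5% higher in BY4742, 13.0% and 14.7% in UWOPS87-2421, 5.77% and 8.64% in Y55, and 20.0% and 20.5% in YPS606. HIR2, a subunit of the HIR corepressor, fell in all 4 strains, by 0.51 in YPS606, 0.55 in Y55, 0.52 in UWOPS87-2421 and 0.75 in BY4742. YTA7, a chromatin factor of the HIR-regulated loci, rose by 0.70 in YPS606, 0.52 in UWOPS87-2421 and 1.01 in BY4742 and had 0.18 in Y55. SWI6, a subunit of both SBF and MBF, fell by 0.34 in YPS606, 0.23 in UWOPS87-2421 and 0.30 in BY4742.

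Other genes make products that handle histone proteins. Of 10 chaperone genes, 4 fell in BY4742 and none was called in Y55 or UWOPS87-2421, and 1 fell and 2 rose in YPS606. Of 10 genes of the SWR1 complex, which deposits H2A.Z, 2 fell and 2 rose in BY4742, 5 fell in UWOPS87-2421, 3 in Y55 and 2 in YPS606. Beside the shares of all genes just given, the SWR1 counts were above those called lower in UWOPS87-2421 and Y55 and near or under them in YPS606 and BY4742. ARP6, one of its subunits, fell in all 4 strains, by 0.30 to 0.38. RTT109, the acetyltransferase of lysine 56 of new H3, fell by 0.57 in YPS606, 0.44 in Y55, 0.78 in UWOPS87-2421 and 0.92 in BY4742. CSE4, the centromeric H3 variant, did not pass in any strain, whereas SCM3, its chaperone, rose by 1.12 in YPS606, 0.78 in Y55 and 0.90 in UWOPS87-2421.

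Between strains without caffeine, 3 of 11 G1/S genes were higher and 3 lower than in BY4742 in YPS606, 2 and 1 in Y55 and 3 and 1 in UWOPS87-2421. Of all genes, 21.0% were higher and 17.1% lower in YPS606, 20.0% and 13.9% in Y55 and 20.8% and 15.8% in UWOPS87-2421. In caffeine 8, 7 and 7 G1/S genes were higher than in BY4742, beside 24.5%, 30.4% and 28.1% of all genes, and 1, 2 and 2 were lower, beside 22.0%, 28.7% and 26.4%. POL30 was higher than in BY4742 in caffeine by 1.53 in YPS606, 1.40 in Y55 and 1.37 in UWOPS87-2421, and without it by 0.38, 0.39 and 0.54. CSE4 was higher in caffeine by 0.65, 0.54 and 0.47. Without it the CSE4 differences were 0.52, 0.32 and 0.41, and that of Y55 did not pass. The daughter-cell genes DSE1 and CTS1 were far lower than in BY4742 without caffeine, with log2 differences for DSE1 of -5.32 in YPS606, -3.21 in Y55 and -3.66 in UWOPS87-2421.

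Over the 24 libraries, genes that share a promoter followed each other to unequal degrees. Pearson's r of log2 CPM was 0.98 for HTA2 and HTB2, 0.95 for HHT1 and HHF1, 0.86 for HTA1 and HTB1 and 0.62 for HHT2 and HHF2. With each group's mean taken out it was 0.90, 0.95, 0.37 and 0.11 in that order. High r was not particular to a shared promoter. Over the 24 libraries it was 0.96 for HTA1 and HHT1 and 0.96 for HHF2 and HTZ1, which lie at different loci. With each group's mean taken out these were 0.80 and 0.84. The lowest r of the 45 pairs of histone genes over the 24 libraries was 0.34, for HTB1 and HHT2. Outside the 10, among 5396 genes averaging 10 CPM or more, the summed core histones were most like YGK1 (r = 0.95), TDH2 (0.94), TOS4 (0.94), SNL1 (0.93) and FBA1 (0.92). HTZ1 was most like SUI1 (0.95), NHP6A (0.95), TPI1 (0.94), RPS26B (0.93) and ADK1 (0.93), and HHO1 most like ERV2 (0.93), GAL83 (0.92), ADH1 (0.90), SAM1 (0.89) and SOD1 (0.86). These are descriptions over libraries that share strains, media and scaling, and reads shared between copies enter them.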

How the data were processed

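RNA was sequenced in 24 libraries of 4 strains with and without caffeine. The libraries were made with the TruSeq Stranded mRNA kit, and the authors trimmed reads with Trimmomatic 0.36 and pseudo-aligned them to R64 reference transcripts with kallisto 0.44.0 and sequence bias correction. No strand option is stated, so that reads of overlapping antisense transcripts may be included. The deposited estimated counts of 6713 transcripts per library were rounded to whole numbers, which kallisto's division of shared reads leaves fractional for 15.4% to 18.4% of transcripts per library (off a whole number by over 0.01). Deposited effective lengths served for levels per kilobase, copy shares and 1 alternative. The TPM column was left aside, as were 6 deposited tables with the fold changes and p-values of the authors' own DESeq2 runs, each of a strain with the reference.

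Analysis was in R 4.3.3 with edgeR 4.0.16, which loads limma 3.58.1. Its quasi-likelihood test used a single fit of 24 libraries with 1 coefficient for each of 8 groups, TMM factors (0.863 to 1.26) and edgeR's filter on low counts. Benjamini-Hochberg adjustment was over all 6400 genes in each comparison (6396 in the table with pair sums), with a threshold of 0.05. The SE of a log2 difference is its absolute value over the root of the F statistic. CPM uses TMM-scaled library sizes. In each strain the TMM factors were higher in caffeine than without it. They were 1.17 to 1.26 against 0.915 to 0.961 in BY4742 and 1.07 to 1.11 against 0.888 to 0.944 in YPS606. Log2 differences are thus relative to the other genes of a library, and medians near 0 over all genes follow largely from the scaling. The lowest count of a histone gene, 575, has a counting error of 4.17%, and counting error was not separated from the spread between libraries. Shares were tested by exact permutation. The test was checked on simulated counts with the same dispersion for every gene and balanced changes in a small part of the genes. In these data many more genes were called, so the check does not cover such a setting. Figures were drawn with Python 3.11.15 and matplotlib 3.10.9, and sequences were read from the R64 genome.

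Alternatives were RLE size factors, DESeq2 1.42.0, length offsets, no filter, only the groups compared, a threshold of 0.01, a 2-fold minimum, each library left out, and, added after seeing the data, leaving out libraries with under 100 URA3 counts and a block for each run of 8 consecutive library numbers. The 10 histone genes are always named. From each list of related genes at most 3 are named per kind of comparison, those called in most comparisons, ties by the largest change. CDC21, given as the only G1/S gene that rose in YPS606, was named after its values were seen, as were the plasmid genes. The genes most like a histone gene are the 5 with the highest Pearson r. The members, lists and tests were chosen with earlier results of these data known.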

Additional observations from a re-analysis of the deposited data

Results flagged for a closer look

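In 20 combinations of a histone gene and a strain, the caffeine response differed from that of BY4742 by an interaction term of edgeR's fit with an adjusted p under 0.05, and for 11 sums over copies as well. Every difference was positive, with a smaller loss in caffeine than in BY4742, or no loss, as for HTA1, HHT1, HHF1 and HHO1 in YPS606. The differences share the 6 BY4742 libraries, and those of Y55 and UWOPS87-2421 come from strains whose profiles differed at 4 genes.

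In YPS606 the differences on the log2 scale were 1.72 for HTA2, 1.27 for HTB2, 1.23 for HHT1, 1.12 for HHF1, 1.11 for HHO1, 0.82 for HTA1, 0.72 for HHF2, 0.61 for HTB1 and 0.56 for HHT2, with adjusted p from 0.00047 to 0.0383. The sums over copies differed by 1.05 for H2A, 0.89 for H2B, 0.79 for H3 and 0.91 for H4. The calls of HTA1, HTA2, HHT1, HHT2, HHF1 and HHO1 were kept with each library left out. That of HTB2 was lost without library 45 (1.09), that of HTB1 without library 25, 29, 34 or 46 (0.49 to 0.55), and that of HHF2 without 9 of the 12 libraries (0.58 to 0.76).

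In Y55 they were 1.64 for HTA2, 1.05 for HTB2, 0.92 for HHT1, 0.78 for HHF1, 0.71 for HHO1, 0.56 for HTB1 and 0.47 for HTA1. The sums differed by 0.77 for H2A, 0.77 for H2B, 0.43 for H3 and 0.65 for H4. The HTA2 and HHT1 calls were kept with each library left out. HTB2 lost its call without 7 of 12 libraries (0.80 to 0.996), HHF1 without 6 (0.62 to 0.75), HHO1 without 9 (0.60 to 0.69), HTB1 without library 25, 27 or 29 (0.44 to 0.47) and HTA1 without 7 (0.36 to 0.44). The H3 and H4 sums lost theirs without 8 (0.34 to 0.43) and 10 (0.52 to 0.65).

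In UWOPS87-2421 they were 1.34 for HTA2, 0.86 for HHT1, 0.64 for HTB1 and 0.46 for HTA1, and the sums differed by 0.68 for H2A, 0.77 for H2B and 0.43 for H3. HTA1 and the H3 sum lost their calls without 10 of 12 libraries (0.37 to 0.48 and 0.34 to 0.45). Without library 37 of BY4742 in caffeine, which had the highest HTA2 level of its group, HTB2 (1.27), HHF1 (1.04) and HHO1 (0.78) also passed, and in Y55 HHF2 (0.72).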

How the results depend on the processing

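Counts are of 10 histone genes and of 4 sums over copies. The labels pair no libraries, since each has a number of its own, but each of the 3 runs of 8 consecutive numbers holds 1 library of every group. With a replicate block for these runs, chosen after seeing the data, counts were within 1 gene of those without it. HHO1 for caffeine in UWOPS87-2421 was lost (-0.50, adjusted p = 0.0509), HTZ1 in UWOPS87-2421 against BY4742 in caffeine (0.28) and HHF1 for the UWOPS87-2421 interaction (0.71) were gained, and 5 genes passed that interaction (4 before). Libraries of 1 run deviated together (every r over 0.1) in 2 of 12 comparisons, both of Y55 with BY4742, and r ran from -0.30 to 0.35. The 10 calls in BY4742 in caffeine were kept in each library left out and in the 5 other fits. Of 182 results for a single gene or sum, 128 were called in any fit of all libraries, and none of these changed direction. Results picked because they were called are unlikely to change sign, and the rest of the 182 were left out of this count. With RLE size factors 1 sum was called in Y55 in caffeine (2 before) and 1 in YPS606 without caffeine (2 before), and 2 genes in Y55 without caffeine (1 before). DESeq2 gave 1 sum in YPS606 and 2 genes in Y55 without caffeine, and length offsets gave 1 sum in YPS606 without caffeine. Fits of only the groups compared called 0 sums for caffeine in YPS606, 1 gene and 1 sum for caffeine in Y55, 1 sum each in YPS606 and UWOPS87-2421 without caffeine, 2 sums in UWOPS87-2421 in caffeine, and 2 genes and 2 sums for the Y55 interaction. At an adjusted p under 0.01 caffeine called 1 gene and 0 sums in YPS606, 2 genes and 1 sum in Y55 and 1 sum in UWOPS87-2421. Without caffeine 1 sum was called in YPS606 and 0 in Y55, and the interactions had 5 genes in YPS606 and 2 genes and 2 sums in Y55. With a 2-fold minimum caffeine called 1 gene and 0 sums in YPS606, 1 and 0 in Y55, 2 and 0 in UWOPS87-2421 and 6 genes in BY4742. Against BY4742 it left 0 genes and sums without caffeine, and in caffeine 6 genes in YPS606, 4 genes and 1 sum in Y55 and 3 genes and 1 sum in UWOPS87-2421. It left 5 genes and 1 sum in the YPS606 interaction, 2 and 0 in that of Y55 and 1 and 0 in that of UWOPS87-2421. Without libraries low in URA3, chosen after seeing the data, caffeine called 2 genes and 1 sum in Y55 and 3 and 1 in UWOPS87-2421, and the interactions 2 and 2 in Y55 and 2 and 1 in UWOPS87-2421.

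With each library left out in turn, genes called for caffeine numbered 5 to 7 in UWOPS87-2421, 2 to 5 in Y55 and 1 to 4 in YPS606, and sums 1 to 3, 1 to 2 and 0 to 1. The 1 sum in UWOPS87-2421 was without library 32 or 36. Without caffeine 2 to 5 genes and 1 to 2 sums were called in YPS606 and 1 to 2 genes and 0 to 1 sums in Y55. In caffeine 8 to 9 genes were called in Y55, and 7 to 9 genes and 3 to 4 sums in UWOPS87-2421. Interactions had 7 to 9 genes in YPS606, 2 to 8 genes and 2 to 4 sums in Y55 and 3 to 7 genes and 2 to 4 sums in UWOPS87-2421. Genes that differed between Y55 and UWOPS87-2421 numbered 4 to 5 in caffeine.

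Without the top 1% of transcripts (67) the core share was 0.587% in caffeine and 0.592% without it in YPS606, 0.431% and 0.556% in Y55, 0.402% and 0.524% in UWOPS87-2421 and 0.279% and 0.507% in BY4742, in the same order. The copy shares of HHF2 were the least firm. Against BY4742 the Y55 difference was -0.000296 points without division by length and -0.891 to 0.801 with libraries left out (reversed at -0.891, -0.721, -0.237 and -0.041). The caffeine difference in BY4742 was -0.306 to 3.08 (reversed at -0.306 and -0.274), and the YPS606 difference from BY4742 was -6.33 to -4.64, past the threshold in 6 of 12. The HTB1 share against BY4742 was 5.0 to 7.64 points in YPS606 and 3.5 to 6.15 in UWOPS87-2421. The cause of these changes was not tested, beyond fewer libraries or a stricter threshold where that was the change.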
